A study of Mus musculus with 8 samples.

Results

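A set of 10 genes that define the bone-forming and cartilage-forming lineages were followed in untreated mouse embryonic fibroblasts (MEFs) and in MEFs treated with 1 of 3 small molecules. They were Runx2, Sp7, Dlx5, Alpl, Spp1 and Ibsp of the osteoblast lineage and Sox9, Sox5, Acan and Comp of the chondrocyte lineage. They were chosen by symbol, and each of the 10 matched 1 row among the 50578 genes of the count table. Of the 10, 5 had enough reads for a test: Runx2, Alpl, Spp1, Sox9 and Sox5. The other 5, Sp7, Dlx5, Ibsp, Acan and Comp, had at most 6 reads in any library. Alpl passed the filter on low counts only through the treated libraries, where it was higher, so counts over the tested members are descriptions and support no statement about the list.

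The MEFs were wild type, of C57BL/6J origin, taken from E13.5 embryos after head, tail, limbs and internal organs had been removed, and used at passage 3 to 5, so the starting tissue held no limb skeleton. The control group was labelled as MEFs with no compound, and the other groups received carbidopa, LY-364947 or CHIR-99021, each at 10 µM and with 2 libraries. Carbidopa blocks aromatic amino acid decarboxylase, LY-364947 blocks the type I TGF-beta receptor, and CHIR-99021 blocks the kinase GSK3, whose inhibition stabilizes beta-catenin in the Wnt pathway. The sample labels spell LY-364947 as LY-364747 and call the treated cells hepatic-like. Of 6 hepatocyte markers read to check that label (Alb, Afp, Apoa1, Hnf4a, Serpina1a and Cyp3a11, picked with the data in hand), none had more than 10 reads in any treated library, and Alb, the gene for albumin, had 5 to 10 there and 0 to 2 in MEFs. The duration of treatment before RNA-seq and any vehicle in the controls were not given in the sources used here. Nothing in them says whether replicates were separate cultures, so the p-values measure the spread between these libraries, which may be technical. Total counts per library ranged from 15039566 to 20504338. The carbidopa replicates stood apart from each other: the chi-square of their counts per degree of freedom was 36.9, where sampling noise alone gives about 1 and the replicates of the other groups gave 4.44 to 9.59.

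Osteoblasts and chondrocytes both arise from mesenchymal progenitors. Runx2, with its DNA-binding partner Cbfb, starts the osteoblast programme, Sp7 (osterix) acts downstream of it and Dlx5 is an activator of both. The enzyme made from Alpl, tissue-nonspecific alkaline phosphatase, removes the mineralization inhibitor pyrophosphate, and Spp1 (osteopontin) and Ibsp (bone sialoprotein) are acidic phosphoproteins of bone matrix. Sox9 starts the chondrocyte programme, Sox5 cooperates with it together with Sox6, Acan encodes the large proteoglycan aggrecan of cartilage, and Comp encodes a pentameric matrix glycoprotein of cartilage and tendon. Several members are not particular to the skeleton: Spp1 is made by macrophages and bile duct cells as well, and Sox9 marks bile duct and hepatic progenitor cells.

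RefSeq start sites on GRCm38.p6, the assembly of mm10, were matched by symbol for 6 of the 10 members (Runx2, Alpl, Spp1, Ibsp, Sox5 and Acan). The 250 bases before the start are printed for Runx2, for both starts of Alpl and for the first start of Spp1, since these genes carry the differences described next. Short motifs of 4 factor families were searched on both strands: TGTGGT for RUNX factors, CTTTGAT for TCF/LEF, ACAAAG for SOX factors and TGANTCA for AP-1. Read on the opposite strand, the SOX motif is CTTTGT, which shares its first 5 letters with the TCF/LEF motif. Capitals mark matches.
Runx2, chr17:44814628-44814877, minus strand: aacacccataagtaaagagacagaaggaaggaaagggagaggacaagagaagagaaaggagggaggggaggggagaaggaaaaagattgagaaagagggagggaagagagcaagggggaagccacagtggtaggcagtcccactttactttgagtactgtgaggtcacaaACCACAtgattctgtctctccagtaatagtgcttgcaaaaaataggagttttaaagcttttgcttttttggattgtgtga
Alpl upstream start, chr4:137796385-137796634, minus strand: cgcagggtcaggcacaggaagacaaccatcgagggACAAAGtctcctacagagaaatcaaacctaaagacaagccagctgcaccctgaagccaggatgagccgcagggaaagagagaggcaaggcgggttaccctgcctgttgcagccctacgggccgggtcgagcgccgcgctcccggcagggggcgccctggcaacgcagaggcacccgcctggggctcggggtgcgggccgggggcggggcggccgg
Alpl downstream start, chr4:137766476-137766725, minus strand: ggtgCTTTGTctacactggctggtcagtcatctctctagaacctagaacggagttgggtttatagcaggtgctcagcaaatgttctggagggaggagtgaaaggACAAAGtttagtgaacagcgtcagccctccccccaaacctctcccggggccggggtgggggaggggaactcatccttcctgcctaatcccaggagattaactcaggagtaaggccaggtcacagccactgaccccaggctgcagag
Spp1 first start, chr5:104434861-104435110, plus strand: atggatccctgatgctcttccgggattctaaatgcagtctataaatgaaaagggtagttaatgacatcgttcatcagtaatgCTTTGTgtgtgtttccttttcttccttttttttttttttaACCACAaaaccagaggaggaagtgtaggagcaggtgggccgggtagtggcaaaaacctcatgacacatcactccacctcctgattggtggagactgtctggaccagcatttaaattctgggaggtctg

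The RUNX motif was found once in the Runx2 window, 80 bases before the start, and once in the first Spp1 window, 128 bases before it, and in neither Alpl window. Of all 32851 promoters of the same length, 14% held it. The SOX motif was found in both Alpl windows and in the Spp1 window, and in 16.5% of all promoters. None of the printed windows held the TCF/LEF motif, which 3.21% of all promoters held, or the AP-1 motif, which 6.75% held. These are matches of letters and not measured binding sites. Counts were made per gene, so reads from the separate starts of Alpl or of Spp1 cannot be told apart here.

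Levels of the tested members differed widely. Per length, in RPKM (reads per kilobase of exon, scaled to sequencing depth), Spp1 was by far the most abundant member in MEFs at 283 ± 26.2 (SD, n = 2 here and below), above 99.3% of all tested genes. Sox9 was at 5.11 ± 0.512 RPKM and Runx2 at 4.04 ± 0.386 RPKM, near the middle of the tested genes (55.7% and 50.4% lay lower). Sox5 was at 0.172 ± 0.0167 RPKM and Alpl at 0.0252 ± 0.00959 RPKM. The order was Spp1, Sox9, Runx2, Sox5, Alpl in MEFs, and Spp1 stayed first in every group. Sox9 and Runx2 lay within 1.28-fold of each other in all 4 groups and changed places under CHIR-99021, where Runx2 was at 3.50 ± 0.394 and Sox9 at 3.30 ± 0.140 RPKM, a gap inside the spread of the replicates. Alpl moved above Sox5 under carbidopa (0.494 ± 0.0607 against 0.272 ± 0.0974 RPKM), was level with it under LY-364947 (0.367 ± 0.0712 against 0.360 ± 0.0404 RPKM) and stayed below it under CHIR-99021 (0.158 ± 0.0211 against 0.312 ± 0.00679 RPKM). Exon lengths were those of GENCODE M21 (14376 bases for Sox5, 4033 for Alpl), which may differ from the annotation that the authors counted on. The order of Sox5 and Alpl depends on them. Without scaling to length, Sox5 had more normalized counts than Alpl in every group, 69.1 against 35.2 under carbidopa and 91.6 against 26.2 under LY-364947.

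Compared with MEFs, Spp1 and Sox9 were lower and Alpl was higher with each of the compounds, Runx2 was lower under carbidopa and LY-364947, and Sox5 was higher under LY-364947 and CHIR-99021. Differences were tested by edgeR's quasi-likelihood test over 15154 genes, with Benjamini-Hochberg adjustment. With carbidopa 4 of the 5 tested members passed an adjusted p of 0.05 (1 higher, 3 lower), where 37.7% of all tested genes did (18% higher, 19.7% lower). With LY-364947 all 5 tested members passed (2 higher, 3 lower), against 31% of all tested genes (13.7% higher, 17.2% lower). With CHIR-99021 it was 4 (2 higher, 2 lower), against 38.8% of all tested genes (18.7% higher, 20.1% lower). All 3 comparisons use the same pair of MEF libraries, so they are not independent of each other. In bulk RNA, fewer cells of a type and less RNA per cell cannot be told apart.

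**Figure D1:**
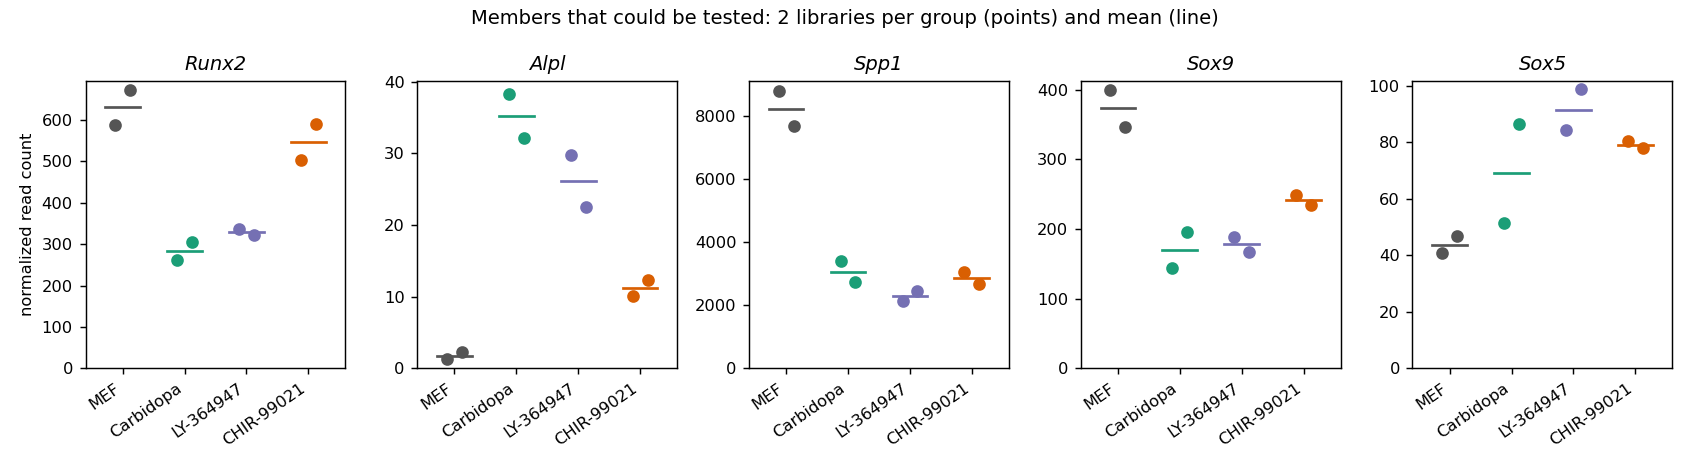
Normalized read counts of the 5 tested members (vertical axes, each starting at 0) in the 4 groups; points are the 2 libraries of a group and lines their mean. Alpl is lowest and Spp1 and Sox9 are highest in MEFs, while the CHIR-99021 libraries of Runx2 lie beside the MEF libraries.

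Among the bone transcription factors, Runx2 (ENSMUSG00000039153, chromosome 17 of mm10, 44495987 to 44814797, minus strand) was the one with clear expression. It had 589 and 674 normalized counts in the MEF libraries. After carbidopa the values were 263 and 307, after LY-364947 336 and 323, and after CHIR-99021 503 and 590. The carbidopa and LY-364947 libraries all lay below every MEF and CHIR-99021 library, whereas the CHIR-99021 and MEF libraries overlapped. Runx2 fell in the carbidopa group (log2 fold change -1.15, standard error 0.14, edgeR adjusted p = 9.90e-05) and in the LY-364947 group (-0.94, standard error 0.14, edgeR adjusted p = 0.000417). With CHIR-99021 the log2 difference from MEFs was -0.21 (95% interval -0.50 to 0.08, edgeR adjusted p = 0.237). LY-364947 and carbidopa differed by 0.21 (95% interval -0.10 to 0.52, edgeR adjusted p = 0.549). Runx2 was higher under CHIR-99021 than with carbidopa by 0.94 (standard error 0.14, edgeR adjusted p = 0.00151), and its excess over LY-364947 was 0.73 (standard error 0.14, edgeR adjusted p = 0.00615). The latter call was lost without CHIR-99021 replicate 2 (log2 difference 0.61, adjusted p = 0.0557), LY-364947 replicate 1 (0.75, adjusted p = 0.0628) or LY-364947 replicate 2 (0.71, adjusted p = 0.0571). The antisense gene Runx2os1 overlaps 519 exonic bases of Runx2 and had 1 to 11 reads per library, few beside the 316 to 591 reads of Runx2.

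The 2 factors that act with Runx2 at the start of bone formation were close to absent. Sp7 (ENSMUSG00000060284, chromosome 15, 102356606 to 102367182) was read 0 and 2 times in the MEF libraries, none under carbidopa or LY-364947, and 3 and 1 under CHIR-99021. Dlx5 (ENSMUSG00000029755, chromosome 6, 6877805 to 6882085) had 1 read in MEF replicate 1 and none in the other 7 libraries. A count of 0 allows up to 3 reads, so neither gene rose above that limit in any library and no fold is given. Cbfb, the partner of Runx2, was lower with each compound (log2 fold changes -1.01, -0.95 and -1.06, in the order carbidopa, LY-364947, CHIR-99021, used for all such triplets, edgeR adjusted p = 0.000102, 0.000159 and 7.12e-05). Cbfb was named after its values had been seen.

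**Figure D2:**
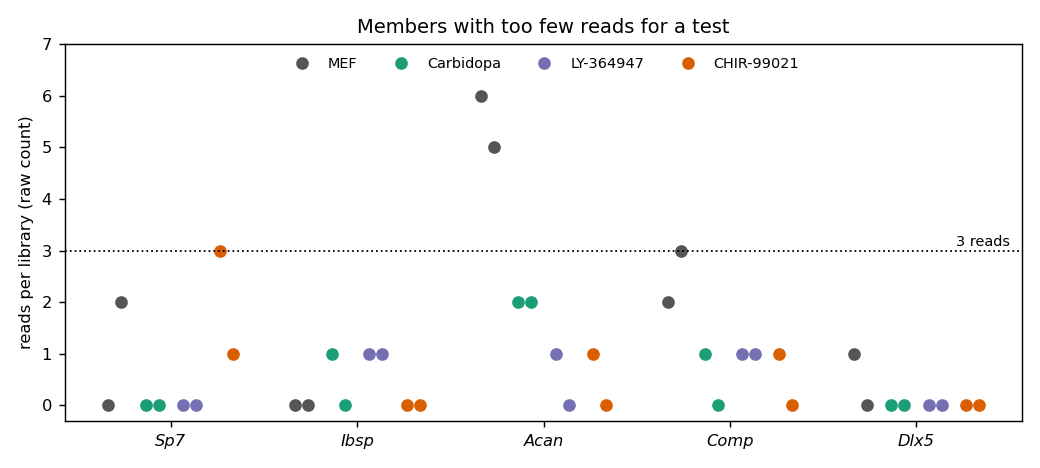
Raw reads per library (vertical axis) of the 5 members that were too low to test; each point is 1 library, colored by group, and the dotted line marks the 3 reads that a count of 0 allows. Only Acan in the MEF libraries, at 6 and 5 reads, lies above the line.

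Alpl (ENSMUSG00000028766, chromosome 4, 137741733 to 137796384, minus strand) was nearly absent in MEFs and higher in the treated libraries. Reads numbered 1 and 2 in the MEF libraries, 46 and 39 under carbidopa, 30 and 24 under LY-364947, and 10 and 12 under CHIR-99021. All 6 treated libraries lay above both MEF libraries, and the 3 treatments did not overlap each other. At the depth of these libraries the ratio to MEFs was 19.2 under carbidopa (95% interval from counting error alone, 6.36 to 95.03), 14.2 under LY-364947 (4.62 to 71.2) and 6.13 under CHIR-99021 (1.84 to 32.0). These wide intervals come from the 3 reads of the MEF group. The edgeR adjusted p against MEFs was 0.000163, 0.000494 and 0.00970 (0.0674 for the last without MEF replicate 1). Since Alpl entered the test only through the groups where it is high, these p-values are given as a description.

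Between compounds, Alpl was lower under CHIR-99021 than with carbidopa by a log2 difference of -1.64 (standard error 0.37, edgeR adjusted p = 0.0150). This call was lost with DESeq2's Wald test (adjusted p = 0.0836) and without CHIR-99021 replicate 1 (adjusted p = 0.136) or replicate 2 (adjusted p = 0.0708). CHIR-99021 against LY-364947 gave -1.21 (95% interval -2.06 to -0.36, edgeR adjusted p = 0.0627, and 0.0451 with the compared groups alone or 0.0481 without carbidopa replicate 2), and LY-364947 against carbidopa gave -0.43 (95% interval -1.15 to 0.30, edgeR adjusted p = 0.589). Even at its highest, 0.494 RPKM under carbidopa, Alpl exceeded only 16.9% of the tested genes. The level of Alpl was highest in the carbidopa libraries and that of Runx2 lowest there.

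Of the other genes for pyrophosphate, phosphate and mineral, picked from the osteoblast list partly after their values had been seen, Enpp1, Ank, Mgp and the phosphate transporter gene Slc20a1 were lower with each compound, and its paralog Slc20a2 was higher with each. Enpp1, the enzyme that makes extracellular pyrophosphate, had 702 ± 16.9 normalized counts in MEFs, 101 ± 9.89 under carbidopa, 119 ± 1.69 under LY-364947 and 82.2 ± 4.07 under CHIR-99021. The corresponding log2 fold changes were -2.80, -2.56 and -3.09 (edgeR adjusted p = 1.94e-07, 3.61e-07 and 1.19e-07). Ank, which exports pyrophosphate, was named after its values had been seen and was lower in each (log2 fold changes -1.04, -1.18 and -1.25, edgeR adjusted p = 2.20e-05, 9.79e-06 and 6.45e-06). Mgp, which encodes the calcification inhibitor matrix Gla protein, fell from 8440 ± 416 normalized counts in MEFs to 533 ± 52.0, 503 ± 27.7 and 666 ± 29.7. Its log2 fold changes were -3.98, -4.07 and -3.66 (edgeR adjusted p = 5.30e-09, 5.71e-09 and 1.32e-08). Phospho1, a phosphatase of matrix vesicles, was also named after its values had been seen and did not pass against MEFs (log2 fold changes 0.17, -0.63 and 0.14, edgeR adjusted p = 0.561, 0.0567 and 0.638).

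Of the bone matrix members, Spp1 (ENSMUSG00000029304, chromosome 5, 104435118 to 104441050, plus strand) was abundant in every library. It had 8776 and 7696 normalized counts in the MEF libraries. After carbidopa the values were 3396 and 2734, after LY-364947 2152 and 2463, and after CHIR-99021 3062 and 2671. All 6 treated libraries lay well below both MEF libraries. Its log2 fold changes were -1.43, -1.84 and -1.52 (standard error 0.14 in each case, edgeR adjusted p = 2.11e-05, 3.87e-06 and 1.33e-05). These calls held under every alternative and with any 1 library left out. Differences between the compounds did not pass: LY-364947 against carbidopa gave -0.41 (95% interval -0.71 to -0.11, edgeR adjusted p = 0.519), CHIR-99021 against carbidopa -0.10 (-0.40 to 0.20, adjusted p = 0.687) and CHIR-99021 against LY-364947 0.31 (0.01 to 0.61, adjusted p = 0.157). Without carbidopa replicate 2, Spp1 was lower under LY-364947 than with carbidopa (log2 difference -0.56, edgeR adjusted p = 0.00630), as it was without a filter on low counts (-0.43, adjusted p = 0.0487). CHIR-99021 against LY-364947 passed for Spp1 with the compared groups alone (0.30, edgeR adjusted p = 0.0408) and without carbidopa replicate 1 (0.32, adjusted p = 0.0298) or replicate 2 (0.32, adjusted p = 0.0310). A short predicted gene on the same strand, Gm42793, overlaps 309 exonic bases of Spp1 and had 2 to 11 reads per library.

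Macrophage markers, like Spp1, were lower in the treated libraries than in MEFs. The 16 macrophage genes listed, all detected in MEFs, summed to 1310 and 1351 CPM (counts scaled to library size) in the MEF libraries. The sums were 409 and 390 CPM in the carbidopa libraries, 290 and 299.9 in those of LY-364947 and 98.1 and 105 in those of CHIR-99021. Of the 14 that could be tested, 13, 13 and 14 were lower than in MEFs in the 3 treated groups, while 0 were higher. Among all tested genes, 19.7%, 17.2% and 20.1% were lower and 18%, 13.7% and 18.7% higher. Lyz2, the most abundant of the 16 in every group, weighed most in the sum. It had 13220 ± 254 normalized counts in MEFs and 3555 ± 355, 2516 ± 35.5 and 898 ± 74.3 in the treated groups. In the same libraries Spp1 was at 497 and 436 CPM in MEFs, 192 and 155 under carbidopa, 122 and 139 under LY-364947 and 173 and 151 under CHIR-99021. From the LY-364947 to the CHIR-99021 libraries the macrophage sum was lower while Spp1 was not. How much of the Spp1 signal came from macrophages was not tested.

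**Figure D3:**
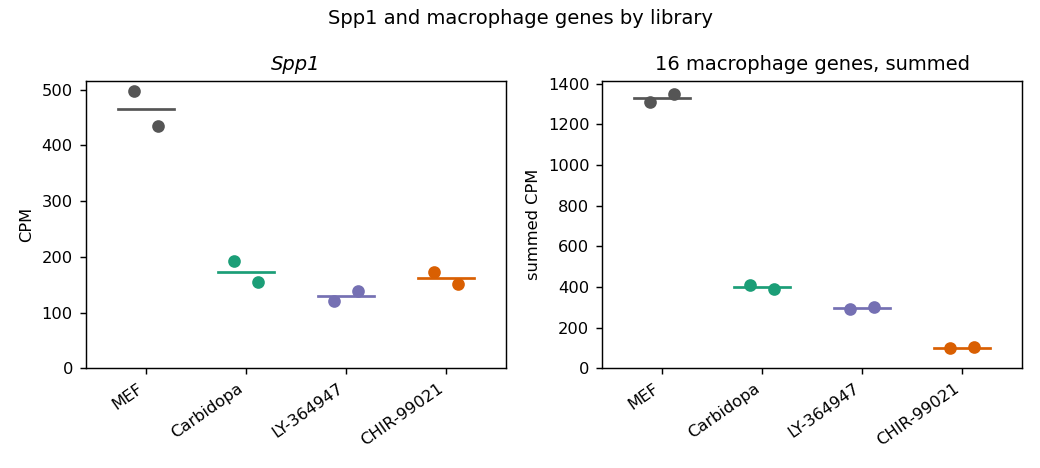
CPM of Spp1 (left) and the sum over 16 macrophage genes (right) in the 4 groups, with vertical axes from 0; points are libraries and lines means. Both are highest in MEFs, and the CHIR-99021 libraries have the lowest macrophage sum, 98.1 and 105 CPM, but not the lowest Spp1.

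Ibsp (ENSMUSG00000029306, chromosome 5, 104299171 to 104311469) lies 123648 bases before Spp1 on the same strand, in a cluster of genes for acidic bone and tooth proteins, yet it was nearly silent. It had no reads in the MEF and CHIR-99021 libraries, 1 and 0 under carbidopa and 1 and 1 under LY-364947. Mepe and Dmp1 of the same family, named for being near 0, had at most 1 and 4 reads in any library. Bglap, which encodes osteocalcin, the marker of the mature osteoblast, had at most 4 reads in any library and Bglap2 at most 3.

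Among the cartilage transcription factors, Sox9 (ENSMUSG00000000567, chromosome 11, 112782224 to 112787760, plus strand) was lower after each treatment. It had 399 and 347 normalized counts in the MEF libraries. After carbidopa the values were 144 and 196, after LY-364947 188 and 167, and after CHIR-99021 248 and 234. All treated libraries lay below both MEF libraries, and the CHIR-99021 libraries lay above those of the other compounds. Its log2 fold changes were -1.13, -1.07 and -0.63 (standard error 0.17 in each case, edgeR adjusted p = 0.000545, 0.000893 and 0.0142). The fall under CHIR-99021 was lost without MEF replicate 1 (adjusted p = 0.112), CHIR-99021 replicate 1 (adjusted p = 0.0655) or CHIR-99021 replicate 2 (adjusted p = 0.0813). CHIR-99021 against carbidopa gave 0.50 (95% interval 0.12 to 0.89, edgeR adjusted p = 0.0810), which passed without carbidopa replicate 2 (0.75, adjusted p = 0.00534) and without a filter on low counts (0.50, adjusted p = 0.0485). CHIR-99021 against LY-364947 gave 0.44 (95% interval 0.05 to 0.82, edgeR adjusted p = 0.127, and 0.0426 with the compared groups alone, 0.0260 without carbidopa replicate 1 or 0.0270 without replicate 2), and LY-364947 against carbidopa gave 0.06 (95% interval -0.33 to 0.45, edgeR adjusted p = 0.884). A list of 12 bile duct and hepatic progenitor genes, a lineage that also uses Sox9, summed to 113 and 116 CPM in MEFs and to 197 to 298 CPM in the treated libraries, and its part in the Sox9 level was not tested. Most of that sum was Sox4, a gene expressed in many tissues, at 91.6 and 97.2 CPM in MEFs and 161 to 263 CPM in the treated libraries. Krt7 and Prom1 of the list, named after their values had been seen, were lower with each compound. Krt7 had 18 to 27 reads in MEFs and at most 6 elsewhere. It passed the filter on low counts only through MEFs, so its calls are descriptions.

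Sox5 (ENSMUSG00000041540, chromosome 6, 143828425 to 144781977, minus strand) lay above its MEF level in all treated groups, at a low level throughout. It had 40.7 and 46.7 normalized counts in the MEF libraries. After carbidopa the values were 51.6 and 86.6, after LY-364947 84.3 and 98.8, and after CHIR-99021 80.4 and 77.9. Every treated library lay above both MEF libraries, and the carbidopa libraries were the farthest apart. Sox5 rose under LY-364947 (log2 fold change 1.06, standard error 0.28, edgeR adjusted p = 0.0152) and under CHIR-99021 (0.85, standard error 0.28, edgeR adjusted p = 0.0370). With carbidopa the log2 fold change was 0.65 (95% interval 0.03 to 1.28, edgeR adjusted p = 0.0931), and without carbidopa replicate 1 it was 0.98 (adjusted p = 0.01002). The call under LY-364947 was lost without MEF replicate 1 (adjusted p = 0.102), MEF replicate 2 (adjusted p = 0.0678) or LY-364947 replicate 2 (adjusted p = 0.0975). The call under CHIR-99021 was lost with DESeq2's Wald test (adjusted p = 0.0992) and without any 1 library of MEF, CHIR-99021 or LY-364947 (adjusted p = 0.0523 to 0.166). No difference between compounds passed, with log2 differences of 0.41 (95% interval -0.16 to 0.97) for LY-364947 against carbidopa, 0.20 (-0.38 to 0.77) for CHIR-99021 against carbidopa and -0.21 (-0.78 to 0.36) for CHIR-99021 against LY-364947. Without carbidopa replicate 2, LY-364947 against carbidopa gave 0.83 (edgeR adjusted p = 0.0335).

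Sox6, the third gene of the cartilage Sox trio, was named after its values had been seen. It had 42.8 ± 10.4 normalized counts in MEFs, 24.4 ± 1.60 under carbidopa, 22.2 ± 0.827 under LY-364947 and 27.1 ± 0.571 under CHIR-99021. It passed as lower under LY-364947 alone (log2 fold change -0.95, edgeR adjusted p = 0.0402), with -0.81 (adjusted p = 0.0554) for carbidopa and -0.67 (adjusted p = 0.109) for CHIR-99021. The antisense gene Sox5os1 overlaps 1330 exonic bases of Sox5 and had at most 2 reads in any library.

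The cartilage matrix members were close to absent. Acan (ENSMUSG00000030607, chromosome 7, 79053483 to 79115099) was read 6 and 5 times in the MEF libraries, 2 and 2 under carbidopa, 1 and 0 under LY-364947 and 1 and 0 under CHIR-99021. Both MEF libraries lay above all treated libraries, but from 11 reads in MEFs to 4, 1 and 1. The ratio of MEF to treated was 4.05 for carbidopa (95% interval from counting error alone, 1.20 to 17.5), 13.9 for LY-364947 (2.02 to 599) and 13.1 for CHIR-99021 (1.91 to 566), and these ratios have no test across libraries. Comp (ENSMUSG00000031849, chromosome 8, 70373558 to 70382066) was read 2 and 3 times in the MEF libraries and at most 1 in each of the others, within the limit that a count of 0 allows. Of the defining collagen of cartilage, Col2a1, no library had more than 5 reads. Other cartilage genes were detected: Col10a1, the collagen of hypertrophic cartilage, named after its values had been seen, had 42 and 50 reads in MEFs and 7 to 11 in the treated libraries.

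**Figure D4:**
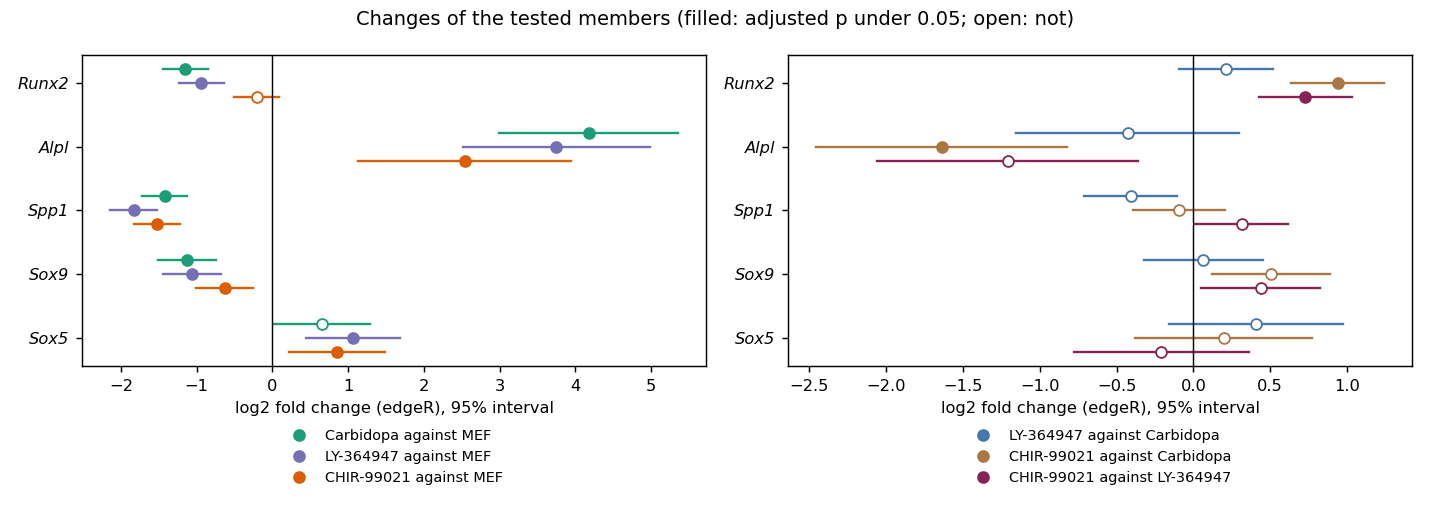
Log2 fold changes from edgeR with 95% intervals for the 5 tested members, against MEFs (left) and between compounds (right); filled points have an adjusted p under 0.05 and open points do not. Against MEFs the open points are Runx2 under CHIR-99021 and Sox5 under carbidopa, and between compounds the filled points are Runx2 for CHIR-99021 against both others and Alpl for CHIR-99021 against carbidopa.

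For the comparisons between compounds, the called members are given beside the shares of all tested genes, as a description. CHIR-99021 against carbidopa gave 2 called members (Runx2 higher, Alpl lower), where 14.7% of all tested genes were called (6.62% higher, 8.08% lower). CHIR-99021 against LY-364947 gave 1 (Runx2 higher), where 14.1% were called (6.45% higher, 7.69% lower). That count was 4 with the compared groups alone or without carbidopa replicate 2, 3 without carbidopa replicate 1, and 0 without CHIR-99021 replicate 2 or either LY-364947 library. LY-364947 against carbidopa gave 0 by edgeR, where 0.0132% were called. In that comparison 1 of the 5 (Spp1) had an unadjusted edgeR p under 0.05, as had 1367 of all 15154 tested genes. DESeq2's Wald test also gave 0 there.

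Other genes of the osteoblast lineage formed a list of 32 without the members. Of the 23 that could be tested, where 19.7%, 17.2% and 20.1% of all tested genes were lower, 15 were lower and 5 higher under carbidopa, 15 lower and 5 higher under LY-364947, and 15 lower and 4 higher under CHIR-99021. Their median log2 fold changes were -1.01, -0.95 and -1.06, where that of all tested genes was 0.037, 0.028 and 0.043. The same 15 genes were lower with all 3 compounds. They included the type I collagen gene Col1a2, at 68108 ± 230 normalized counts in MEFs and 17317 ± 126, 18430 ± 736 and 13807 ± 464 in the treated groups (log2 fold changes -1.98, -1.89 and -2.30, edgeR adjusted p = 1.58e-07, 2.18e-07 and 5.99e-08). They also included Tnfrsf11b, which encodes osteoprotegerin, the decoy receptor that restrains osteoclast formation. Tnfrsf11b fell from 467 ± 84.4 normalized counts to 14.9 ± 3.61, 7.26 ± 0.953 and 48.5 ± 6.77 (log2 fold changes -4.96, -5.99 and -3.27, edgeR adjusted p = 1.82e-07, 1.22e-07 and 1.30e-06). Many of these genes, the collagens among them, are expressed by fibroblasts in general.

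The genes of this list that were higher with all 3 compounds were Msx2, Pth1r, Slc20a2 and Ogn, named after their values had been seen. Pth1r, the receptor for parathyroid hormone, had 21.4 ± 1.28 normalized counts in MEFs, 169 ± 41.5 under carbidopa, 176 ± 14.7 under LY-364947 and 95.5 ± 4.52 under CHIR-99021 (log2 fold changes 2.98, 3.03 and 2.15, edgeR adjusted p = 9.56e-06, 8.86e-06 and 0.000139). Like Alpl it was lower under CHIR-99021 than with carbidopa (log2 difference -0.83, edgeR adjusted p = 0.0223). Ogn, a small leucine-rich proteoglycan, rose from 4701 ± 504 normalized counts to 26212 ± 441, 29764 ± 3541 and 18620 ± 2842 (log2 fold changes 2.48, 2.66 and 1.99, edgeR adjusted p = 5.13e-07, 3.30e-07 and 2.17e-06). Bmp2, a ligand that induces bone formation and also named after its values had been seen, was higher under carbidopa (log2 fold change 2.68, edgeR adjusted p = 0.000203) and LY-364947 (2.42, adjusted p = 0.000493), with 0.94 (adjusted p = 0.0902) for CHIR-99021. It was lower under CHIR-99021 than with carbidopa by a log2 difference of -1.74 (edgeR adjusted p = 0.00447). Bmp2 (16 and 9 reads in the MEF libraries) and Msx2 (16 and 7) passed the filter on low counts only through the treated groups. Their calls against MEFs, and the counts of higher osteoblast genes, are therefore descriptions.

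Other genes of the chondrocyte lineage, a list of 32 without the members of which 31 were in the file, had 13 that could be tested. Of these, 8 were lower and 2 higher under carbidopa, 9 lower and 1 higher under LY-364947, and 5 lower and 2 higher under CHIR-99021, with median log2 fold changes of -1.27, -1.12 and -0.67. The shares of all tested genes given above (19.7%, 17.2% and 20.1% lower, 18%, 13.7% and 18.7% higher) are the background for these counts and those of the osteoblast list. Hapln1 (0 and 4 reads in MEFs), Col11a2 (4 and 8) and Col9a3 (4 and 0) were tested only through the treated groups, so the counts are descriptions. Of the chondrocyte list, Col11a2 was the 1 gene called higher with all 3 compounds. These genes were named after their values had been seen. Col11a1, a minor fibrillar collagen of cartilage, fell from 3708 ± 249 normalized counts in MEFs to 186 ± 18.7, 233 ± 16.6 and 378 ± 16.7 (log2 fold changes -4.31, -3.99 and -3.29, edgeR adjusted p = 5.30e-09, 7.71e-09 and 2.61e-08). Xylt1, which starts proteoglycan sugar chains, was lower in each (log2 fold changes -2.297, -2.004 and -1.612, edgeR adjusted p = 2.63e-05, 6.99e-05 and 0.000255). Trps1, a GATA-type repressor of the growth plate, was lower as well (log2 fold changes -2.62, -2.18 and -1.86, edgeR adjusted p = 4.75e-05, 0.000158 and 0.000380). In the direct comparisons 5 of the 13 were higher and 0 lower under CHIR-99021 than with carbidopa, where 6.62% and 8.08% of all tested genes were. Compared with LY-364947, 5 were higher and 0 lower under CHIR-99021, where 6.45% and 7.69% of all tested genes were.

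The other genes of the Runx family, both in the chondrocyte list, had the highest of their treated levels under CHIR-99021, as Runx2 did. Runx1 had 577 ± 3.52 normalized counts in MEFs, 87.7 ± 34.6 under carbidopa, 107 ± 19.0 under LY-364947 and 292 ± 28.3 under CHIR-99021. It was lower than in MEFs in each group (log2 fold changes -2.72, -2.44 and -0.98, edgeR adjusted p = 9.06e-06, 1.93e-05 and 0.00430) and was higher under CHIR-99021 than with carbidopa by 1.73 (adjusted p = 0.000955), and exceeded its LY-364947 level by 1.45 (adjusted p = 0.00261). Runx3, named after its values had been seen, had 14 and 19 reads in MEFs, 5 and 6 for carbidopa, 5 and 3 for LY-364947 and 22 and 25 for CHIR-99021. It was higher under CHIR-99021 than with carbidopa by a log2 difference of 2.37 (edgeR adjusted p = 0.00697), with 2.60 over LY-364947 (edgeR adjusted p = 0.00611). Runx3 passed the filter on low counts only through the MEF and CHIR-99021 libraries, where it was higher, so these calls are descriptions.

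**Figure D5:**
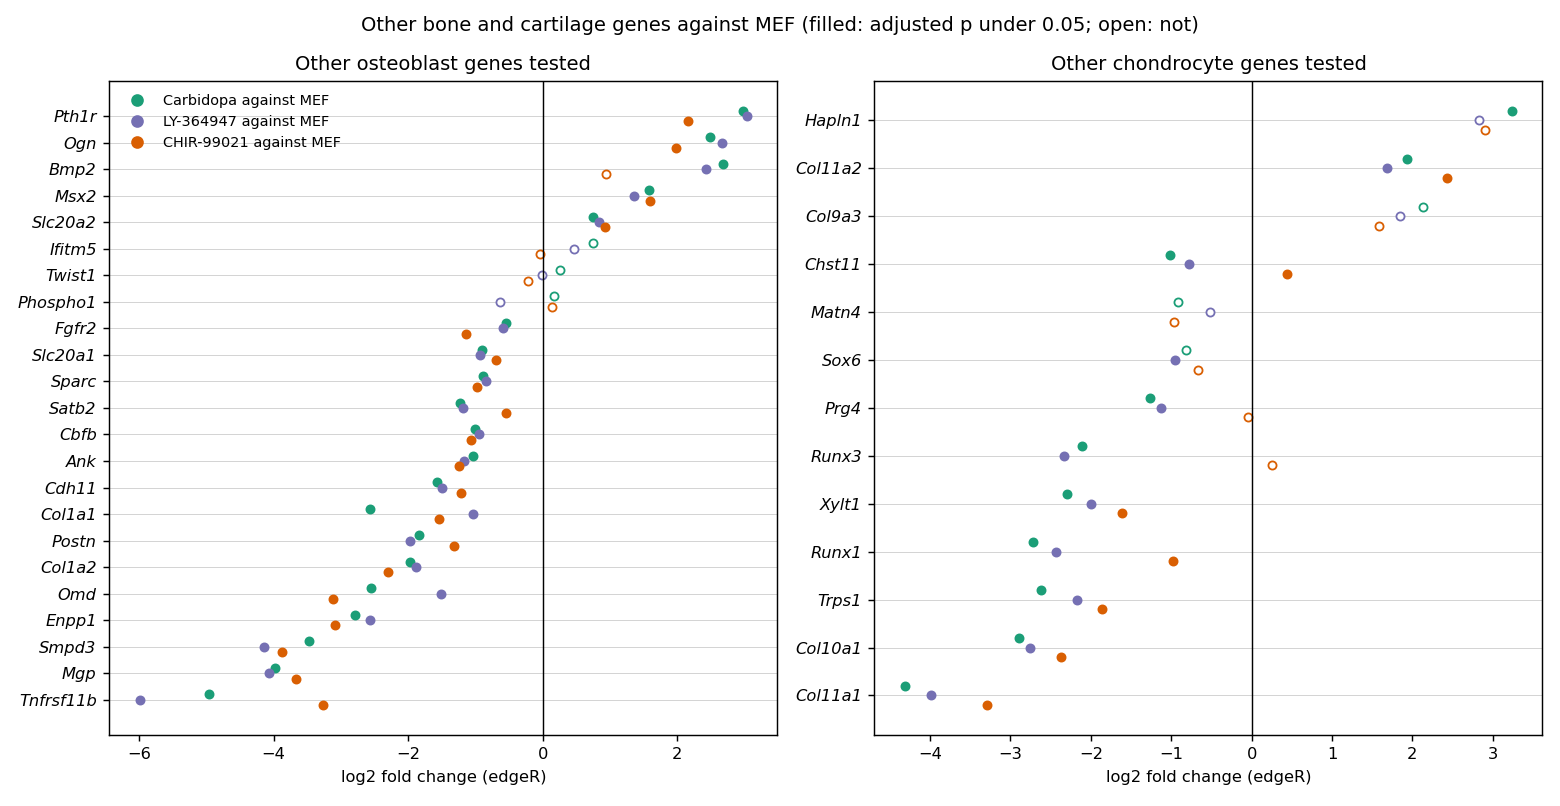
Log2 fold changes against MEFs (horizontal axes) of the 23 tested genes of the osteoblast list (left) and the 13 of the chondrocyte list (right), ordered by their mean; colors stand for the compounds, filled points have an adjusted p under 0.05 and open points do not. Most points lie left of 0, with Tnfrsf11b, Mgp and Col11a1 among the lowest and Pth1r and Ogn among the highest.

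Markers of neighbouring lineages were read in the same libraries. Among all tested genes, 19.7%, 17.2% and 20.1% were lower than in MEFs and 18%, 13.7% and 18.7% higher. These shares are the background for the counts below, which are descriptions. Fibroblast markers summed to 29629 and 29293 CPM in MEFs and to 7101 to 9475 CPM in the treated libraries. With each compound 8 of 10 were lower and 1 (Pdgfra) was higher, S100a4 and Col5a1 having the smallest p. Fn1, named like Pdgfra after its values had been seen, was the most abundant in every group and weighed most in the sum. It had 335275 ± 7301 normalized counts in MEFs and 48482 ± 19690, 66418 ± 4108 and 86053 ± 3004 after treatment. Of 8 tendon genes, 7, 6 and 6 were lower and 1 higher in each comparison with MEFs, Fmod (1183 ± 31.7 normalized counts in MEFs, 33.1 ± 3.30, 38.3 ± 8.94 and 10.2 ± 4.28 after treatment) and Egr1 having the smallest p. Named after their values had been seen, Scx, Tnmd, Thbs4 and Kera had 10 to 43 reads in MEFs and at most 9 elsewhere. They passed the filter on low counts only through MEFs, where they were high, so their calls are descriptions. The adipocyte list had 4 testable genes of 9, of which 2, 2 and 1 were lower and 0 higher, and Lpl fell from 6532 ± 369 normalized counts to 1373 ± 51.5, 1248 ± 0.0347 and 702 ± 76.9. Fabp4 of that list had 103 ± 4.31 normalized counts in MEFs, 23.6 ± 3.078 and 19.7 ± 2.68 under carbidopa and LY-364947, and 127 ± 3.63 under CHIR-99021 (log2 fold changes -2.12, -2.38 and 0.29, edgeR adjusted p = 4.85e-05, 3.11e-05 and 0.265). It was higher under CHIR-99021 than with carbidopa by 2.42 (edgeR adjusted p = 0.000112) and its excess over LY-364947 was 2.67 (edgeR adjusted p = 9.12e-05). Of 5 testable bile duct and hepatic progenitor genes among 12, 3 were higher and 2 lower with each compound, Krt19 with 48.8 ± 10.9 normalized counts in MEFs and 270 ± 97.7, 166 ± 23.9 and 125 ± 23.9 after treatment. Epcam of this list had at most 6 reads in any library, and the part of such cells in the level of Spp1 was not tested. Of 12 testable Wnt and TGF-beta target genes, 2 were higher and 5 lower under carbidopa and under LY-364947, and 5 higher and 4 lower under CHIR-99021, with Tgfbi and Ltbp2 having the smallest p.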

How the data were processed

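RNA-seq of 8 libraries (2 each of MEF, carbidopa, LY-364947 and CHIR-99021) was analysed. Mapping by the authors used STAR (version 2.4.2a per the labels) on mm10, and they made counts per gene with featureCounts. The deposited counts are whole numbers without normalization, with totals of 15039566 to 20504338 per library. The annotation release and the strand setting were not given in the sources used here. The methods name a NEBNext kit and the labels a SMARTER kit.

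Counts were tested in R 4.3.3 with edgeR 4.0.16: TMM normalization, filterByExpr (15154 genes kept), all 8 libraries in one quasi-likelihood fit with group as the only term, Benjamini-Hochberg adjustment over all genes kept, and a threshold of 0.05. A standard error is the log2 fold change divided by the square root of F, and intervals are at 95%. Normalized counts are counts scaled to the mean effective depth. CPM and RPKM were also scaled to the effective depth, which is the total count of the genes kept times the TMM factor. Positions and exon lengths are from GENCODE M21 (GRCm38), in which 50354 of 50578 identifiers were found, and promoters from RefSeq. Intervals and limits from counts cover counting error only. Members and lists were chosen with earlier results of these data known. Named were all members, up to 4 genes each of the osteoblast and chondrocyte lists and up to 2 of each other list (macrophage, fibroblast, tendon, adipocyte, bile duct and hepatic progenitor, Wnt and TGF-beta targets) with the smallest p against MEF among genes whose mean reached 100 normalized counts in 1 group, and defining markers near 0. Named after their values had been seen were Cbfb, Ank, Phospho1, Slc20a1, Slc20a2, Msx2, Pth1r, Ogn, Bmp2, Runx3, Sox6, Col10a1, Hapln1, Krt7, Prom1, Scx, Tnmd, Thbs4 and Kera. Col9a3, Col11a2, Fn1 and Pdgfra were named in the same way. Snorc of the chondrocyte list had no row of that name. The alternatives were DESeq2 1.42.0, RLE size factors, other filters, a replicate block, fits of the compared groups alone, and fits without each single library. On simulated data for carbidopa against MEF (15154 genes), the test found 69.9% of the 2-fold changes and 90.9% of the 4-fold changes, and 6.04% of calls were false. The simulation changed only a small part of the genes and gave all groups the same dispersion. In the data 37.7% of the tested genes were called and the carbidopa replicates stood apart, so these rates need not hold there.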

Additional observations from a re-analysis of the deposited data

How the results depend on the processing

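Runx2, Spp1, Sox9 and Alpl kept direction and call in carbidopa and LY-364947 against MEFs under every alternative that could test them (a minimum of 10 counts in every library removes Alpl). Called members for LY-364947 against carbidopa were 1 without a filter on low counts. For CHIR-99021 against carbidopa they were 1 with DESeq2's Wald test and 1 with at least 10 counts in every library, the latter since Alpl was not tested, and 3 without a filter on low counts, with Sox9 added. For CHIR-99021 against LY-364947 they were 4 with the compared groups alone. With single libraries left out, where the lone library of a group is assumed to vary like the others, called members ranged from 4 to 5 (carbidopa) and 4 to 5 (LY-364947) against MEFs and from 1 to 4 for CHIR-99021, lowest without MEF replicate 1. They ranged from 0 to 2 for LY-364947 against carbidopa, highest without carbidopa replicate 2, from 1 to 3 for CHIR-99021 against carbidopa and from 0 to 4 for CHIR-99021 against LY-364947. The cause was not tested. In all, 3 uncalled differences changed sign when 1 library was left out. Sox9 for LY-364947 against carbidopa became -0.14 without carbidopa replicate 1 and -0.016 without LY-364947 replicate 1, within a range of -0.14 to 0.30 over single libraries left out. Spp1 for CHIR-99021 against carbidopa became 0.072 without carbidopa replicate 1 and 0.0032 without CHIR-99021 replicate 2 (range -0.24 to 0.072). Sox5 in that comparison became -0.13 without carbidopa replicate 1 (range -0.13 to 0.62). The log2 differences between replicates correlated between groups at -0.26 to 0.23. With 1 such difference per group, this cannot decide whether same-numbered libraries shared a culture or batch. The replicate block left the called members at 4, 5, 4, 0, 2 and 1 in the 6 comparisons, with no call changed. Over all genes, 2 were called for LY-364947 against carbidopa, 329 without a filter, 15 with DESeq2, 0 with the compared groups alone and 3816 without carbidopa replicate 2. With the compared groups alone, 1027 in place of 2227 were called for CHIR-99021 against carbidopa and 3673 in place of 2143 for CHIR-99021 against LY-364947. Without MEF replicate 2 the counts against MEFs were 3142, 2841 and 3459 in place of 5717, 4694 and 5878. With 3 reads of Alpl in the MEF group, depth limits its ratio, and 5 members could not be tested at this depth.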
